A study of Mus musculus with 12 samples.

Results

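The genes described here are 10 markers of macrophages and other leukocytes, taken by name from a table of 48709 gene intervals: C1qa, C1qb, C1qc, Csf1r, Ptprc, Cx3cr1, Lyve1, Mrc1, F13a1 and Cd68. Each name matched 1 interval, and all 10 passed the filter on low counts that left 28846 genes for testing. For 7 of them every library of all 4 stages lay above the filter's level of 0.101 CPM (read counts scaled to the library's size), and for the other 3 (C1qa, C1qb and Ptprc) every library of 3 stages did, so none passed through a single stage. The tissue was the heart-forming region of mouse embryos, dissected at embryonic day 8, 8.5, 9.5 or 14 (E8, E8.5, E9.5 and E14), with 3 libraries of total RNA per stage and 12 in all. The labels give no strain, genotype or treatment and do not say whether a library came from 1 embryo or a pool. Cardiac muscle genes marked the tissue in all libraries: the 7 genes Nkx2-5, Tnnt2, Myh6, Myh7, Actc1, Myl7 and Ttn together held 15420 to 24341 CPM.

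Macrophages are phagocytes of the innate immune system. In the mouse the earliest arise in the yolk sac and later ones in the fetal liver, and both settle in the developing heart, where resident macrophages clear dying cells and take part in the growth of coronary and lymphatic vessels. They depend on the receptor encoded by Csf1r, whose ligands are colony-stimulating factor 1 and interleukin 34, and on the transcription factor PU.1, encoded by Spi1. C1qa, C1qb and C1qc encode the 3 chains of C1q, the recognition molecule that starts the classical complement pathway, and in most tissues macrophages are its main source.

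The 3 C1q genes lie side by side on the minus strand of chromosome 4 (GRCm38), C1qb at 136880129 to 136886187, C1qc at 136889804 to 136893065 and C1qa at 136895917 to 136898803. F13a1 lies on chromosome 13 (36867178 to 37050244, minus strand) and Mrc1 on chromosome 2 (14229392 to 14332057, plus strand). The windows from 250 bases before to 50 after the gene start are shown for C1qb, C1qc and F13a1, which had some of the greatest changes, and for Mrc1, which had a different course (RefSeq, GRCm38.p6, 5′ to 3′ on the gene's strand). Capitals mark GAGGAA, the core bound by PU.1, searched on both strands, so that TTCCTC is the same motif read on the other strand.
C1qb, chr4:136886151-136886450, minus strand: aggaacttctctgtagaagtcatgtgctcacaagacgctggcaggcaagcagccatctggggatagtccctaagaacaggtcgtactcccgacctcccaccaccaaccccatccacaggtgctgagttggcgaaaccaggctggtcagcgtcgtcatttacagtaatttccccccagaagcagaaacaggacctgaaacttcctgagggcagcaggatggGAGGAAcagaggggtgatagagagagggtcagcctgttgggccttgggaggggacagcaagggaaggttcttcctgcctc
C1qc, chr4:136892865-136893164, minus strand: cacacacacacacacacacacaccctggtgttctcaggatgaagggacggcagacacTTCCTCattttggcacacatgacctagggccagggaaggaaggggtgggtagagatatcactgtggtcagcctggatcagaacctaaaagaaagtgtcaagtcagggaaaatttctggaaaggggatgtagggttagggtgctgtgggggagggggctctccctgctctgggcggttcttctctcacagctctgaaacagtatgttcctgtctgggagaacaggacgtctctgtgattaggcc
F13a1, chr13:37050195-37050494, minus strand: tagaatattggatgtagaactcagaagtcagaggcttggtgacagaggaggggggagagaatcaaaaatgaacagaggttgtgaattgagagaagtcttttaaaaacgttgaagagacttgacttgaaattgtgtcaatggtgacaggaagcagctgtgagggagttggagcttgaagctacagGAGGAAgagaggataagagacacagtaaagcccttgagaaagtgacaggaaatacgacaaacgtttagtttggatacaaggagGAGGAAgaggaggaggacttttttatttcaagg
Mrc1, chr2:14229164-14229463, plus strand: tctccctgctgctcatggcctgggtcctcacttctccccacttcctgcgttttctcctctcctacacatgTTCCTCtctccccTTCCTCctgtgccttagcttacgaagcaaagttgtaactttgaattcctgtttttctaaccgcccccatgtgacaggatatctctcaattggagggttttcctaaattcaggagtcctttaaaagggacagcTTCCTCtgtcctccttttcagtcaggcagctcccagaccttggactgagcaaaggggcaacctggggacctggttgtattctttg
The motif began 30 bases upstream of the C1qb start and 193 upstream of that of C1qc. It occurred at 66 bases upstream and 17 downstream in F13a1, and at 180, 167 and 35 upstream in Mrc1. RefSeq windows were matched for 7 of the 10 genes, and 6 of the 7 held the motif (7 of 9 windows, since Ptprc and F13a1 have 2 starts each). Of all 32851 windows of this length 28.3% held it, and a match describes the letters of the window only.

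Across the 4 stages the mean level of each of the 10 genes was highest at E14. Of the 10, 8 rose between E9.5 and E14 and 0 fell, where 50% of all tested genes passed, 25.4% upward and 24.6% downward. The 8 were the C1q genes, Csf1r, Ptprc, F13a1, Mrc1 and Cd68. Lyve1 missed the threshold, and the value of Cx3cr1 stands for other genes, for reasons of its interval given after Cd68. The median log2 fold change was 2.61 over the 10 genes and 0.01 over all genes tested. In all 10 the E14 libraries lay above all E9.5 libraries, as did 32.3% of all genes tested, while 30.7% lay wholly below and 63% did not overlap in either direction. In this bulk tissue more cells of a type and more RNA per cell cannot be told apart. Levels are in CPM on library sizes scaled by TMM, changes are log2 fold changes with their standard error (SE), and a gene is called at an adjusted p under 0.05 in edgeR's quasi-likelihood test.

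**Figure D1:**
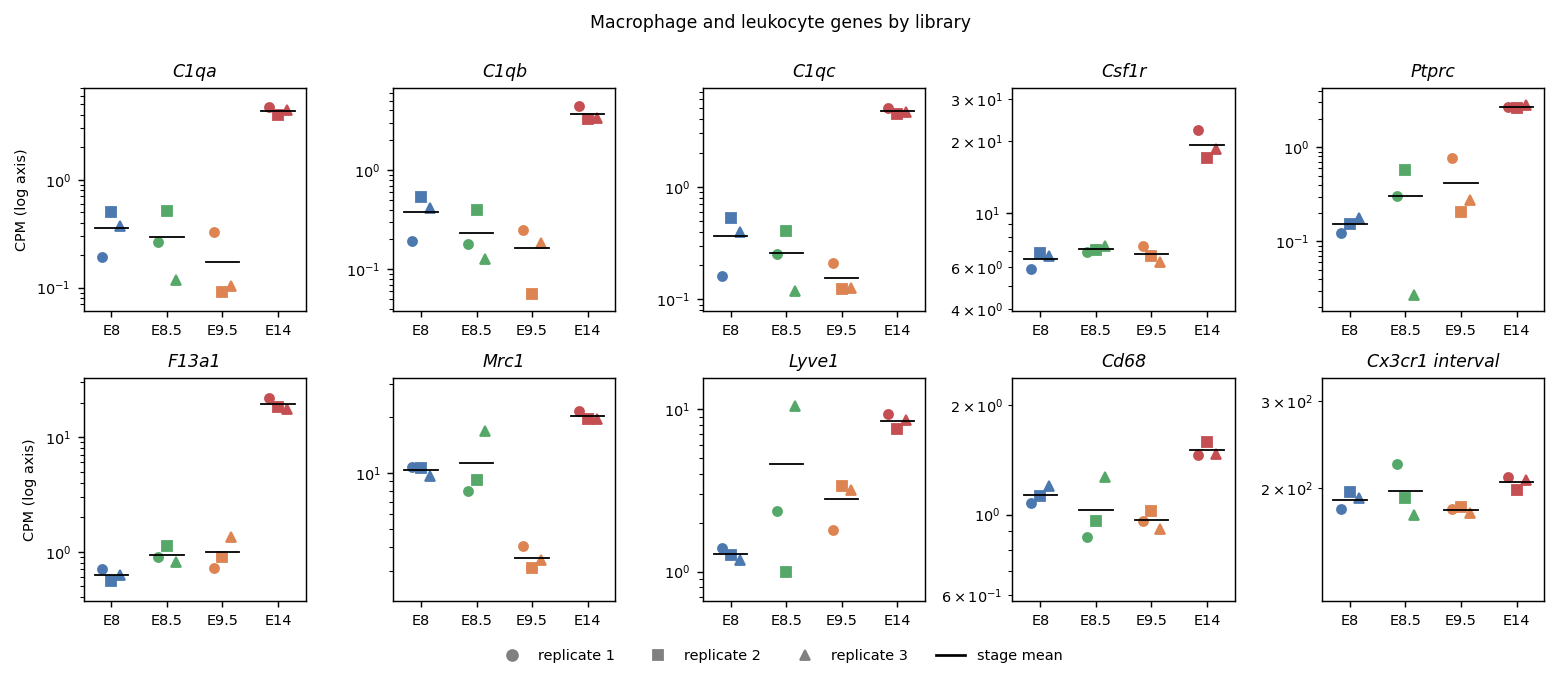
Level of each gene in CPM (log axis) in the 3 libraries of E8, E8.5, E9.5 and E14, with replicates as symbols and the stage mean as a line. The E14 libraries lie above all E9.5 libraries in all 10 panels, Mrc1 is lowest at E9.5, and Lyve1 and Mrc1 are high in E8.5 replicate 3.

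Depth ran from 56574386 to 122785175 counts per library, with the E14 libraries at 56574386 to 97187372. Globin RNA took 0.0556% to 0.0597% of the counts at E8 and 1.91% to 6.03% at E14. E8.5 replicate 3 stood apart: the 7 visceral endoderm genes Afp, Apob, Cubn, Apoa1, Apoc2, Ttr and Amn together held 1642 CPM there, beside 149 and 54.7 CPM in E8.5 replicates 1 and 2 and 18.8 to 18.98 CPM at E8. Values that rest on this library are given with and without it, and their link to the endoderm genes was not tested.

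The C1q genes were near the floor of detection until E9.5. C1qa had 0.191, 0.506 and 0.375 CPM in the E8 libraries, 0.263, 0.508 and 0.118 at E8.5, 0.328, 0.0906 and 0.103 at E9.5, and 4.71, 3.96 and 4.39 at E14. The E14 libraries held 248 to 367 reads of C1qa, against 8 to 25 in the E9.5 libraries. The groups did not overlap, and the log2 fold change of E14 against E9.5 was 4.66 ± 0.58 (adjusted p = 4.60e-05, edgeR). C1qb averaged 3.69 ± 0.684 CPM at E14 and 0.163 ± 0.0979 at E9.5 (mean ± SD, n = 3 libraries), a difference of 4.51 ± 0.55 on the log2 scale. C1qc averaged 4.70 ± 0.287 CPM at E14 and 0.153 ± 0.0490 at E9.5, a difference of 4.94 ± 0.48. Before E14 the order of the stage means was the same for all 3 genes, highest at E8 and lowest at E9.5, but the libraries of neighbouring stages overlapped and no difference passed (E8.5 against E8, adjusted p = 0.377 to 0.764, and E9.5 against E8.5, 0.239 to 0.476, edgeR). E14 also lay above E8, by 3.59 ± 0.53 for C1qa, 3.26 ± 0.49 for C1qb and 3.67 ± 0.43 for C1qc.

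The 3 chains varied together in the order of their libraries. At E8 replicate 2 was highest and replicate 1 lowest for all 3 genes. At E8.5 replicate 2 was highest and replicate 3 lowest, and at E9.5 and E14 replicate 1 was highest and replicate 2 lowest. The order of the libraries was thus the same for C1qa, C1qb and C1qc in each of the 4 stages. At E9.5 it rested on few reads, 5 to 25 per gene and library, and C1qc had 11 reads in replicates 2 and 3 alike. The ratio of the counts varied there: C1qa had 0.56 to 1.6 times the reads of C1qb, and C1qc 0.69 to 2.2 times. At E14 these ratios were 1.05 to 1.31 and 1.12 to 1.38. E9.5 replicate 1 weighs on the size of the C1qa change, which stood at 5.47 ± 0.62 without that library.

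Csf1r encodes the receptor tyrosine kinase for colony-stimulating factor 1 (chromosome 18, 61105572 to 61132149, plus strand). It had 5.87, 6.83 and 6.63 CPM at E8, 6.92, 7.02 and 7.35 at E8.5, 7.35, 6.66 and 6.27 at E9.5, and 22.2, 17.0 and 18.5 at E14. The 3 earlier stages did not differ beyond their spread by test, although all E8.5 libraries lay above all E8 libraries (0.14 ± 0.11, adjusted p = 0.426, edgeR). The rise at E14 was 1.51 ± 0.11 against E9.5 (adjusted p = 5.30e-07, edgeR) and 1.57 ± 0.11 against E8. The last 871 bp of the interval overlap Hmgxb3 on the other strand, a gene with 5.53 times the counts of Csf1r, so reads of that stretch cannot be told apart. Hmgxb3 did not move with it: it had 38.9 ± 1.42 CPM at E14 and 47.3 ± 1.82 at E9.5, and it fell by 0.28 ± 0.06 (adjusted p = 0.00204, edgeR). The microRNA gene Mir6983 lies inside Csf1r on the same strand, away from the overlap, and shares its reads. It had 32 to 47 reads in the E14 libraries, 0 to 5 at E9.5 and 0 to 4 at E8 and E8.5. How far the overlap entered the change of Csf1r was not tested.

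Ptprc encodes CD45, the tyrosine phosphatase found on nearly all nucleated blood cells (chromosome 1, 138062861 to 138175708, minus strand). Its level was 0.124, 0.155 and 0.176 CPM in the E8 libraries, 0.306, 0.573 and 0.0271 at E8.5, 0.774, 0.204 and 0.274 at E9.5, and 2.66, 2.64 and 2.84 at E14. The libraries of E8.5 and E9.5 spread widely, from 3 to 62 reads at E8.5 and 18 to 59 at E9.5, while those of E14 lay close together. E14 stood above E9.5 by 2.71 ± 0.69 (adjusted p = 0.00683, edgeR), and by 3.49 ± 0.76 without E9.5 replicate 1. Ptprc did not pass between E8 and E8.5 (0.98 ± 0.74, adjusted p = 0.409, edgeR), but without E8.5 replicate 3, the library with 3 reads, it was higher at E8.5 by 1.48 ± 0.49 (adjusted p = 0.0405, edgeR).

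F13a1 encodes the A subunit of coagulation factor XIII, a transglutaminase made by macrophages and by megakaryocytes. It had 0.707, 0.558 and 0.630 CPM at E8, 0.901, 1.12 and 0.814 at E8.5, 0.722, 0.895 and 1.35 at E9.5, and 22.0, 18.3 and 17.5 at E14. Reads per library numbered 1157 to 1690 at E14 and 55 to 121 at the earlier stages. The rise at E14 was 4.28 ± 0.22 against E9.5 (adjusted p = 3.84e-08, edgeR) and 4.93 ± 0.22 against E8. All E8.5 libraries lay above all E8 libraries, a difference of 0.58 ± 0.21 that did not pass (adjusted p = 0.109, edgeR). Genes of megakaryocytes and platelets, which also make F13a1, are given beside the other lists.

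**Figure D2:**
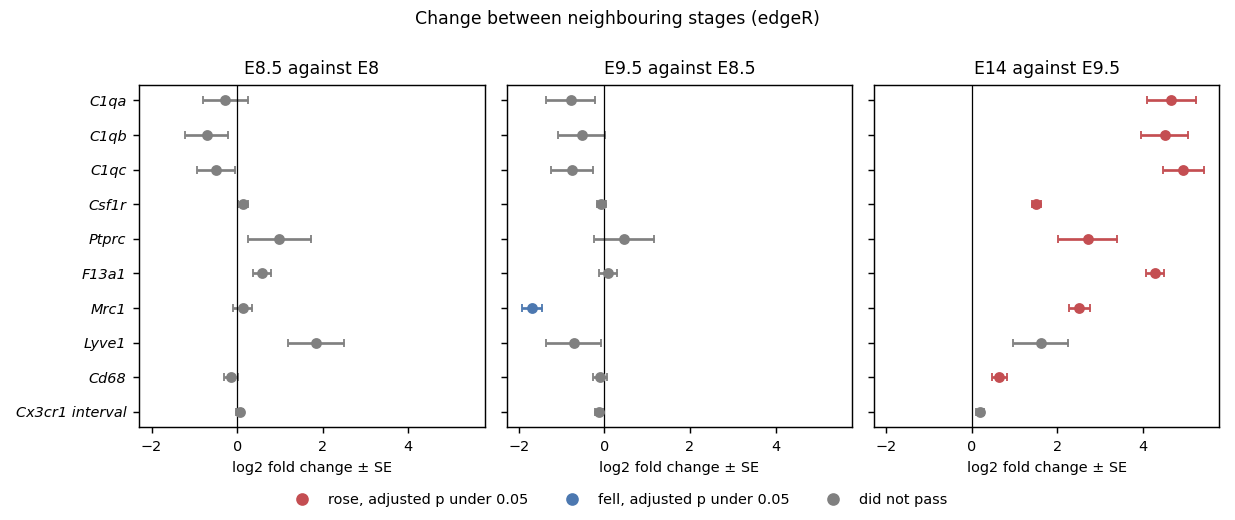
Log2 fold change with its SE for each gene in E8.5 against E8, E9.5 against E8.5 and E14 against E9.5, coloured by whether it passed an adjusted p of 0.05 in edgeR. The values of the last interval lie right of 0 for all 10 genes, from 0.19 for the Cx3cr1 interval to 4.94 for C1qc, and the fall of Mrc1 is the only call of the first 2 intervals.

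Mrc1 encodes the mannose receptor CD206, an endocytic receptor of tissue macrophages that is also made by some endothelial cells. Its course differed from that of the C1q genes. The level was 10.7, 10.6 and 9.66 CPM at E8, 8.03, 9.17 and 16.8 at E8.5, 4.04, 3.09 and 3.42 at E9.5, and 21.5, 19.5 and 19.3 at E14. All E9.5 libraries lay below all libraries of every other stage, and all E14 libraries lay above all others. Mrc1 fell by 1.69 ± 0.23 between E8.5 and E9.5 (adjusted p = 0.000402, edgeR), and by 1.26 ± 0.11 without E8.5 replicate 3. It was the only call in that interval, where 18.5% of all genes tested fell and 18.4% rose. Between E9.5 and E14 it rose by 2.51 ± 0.24 (adjusted p = 5.62e-06, edgeR), and E14 exceeded E8 by 0.96 ± 0.22 (adjusted p = 0.00280, edgeR). The microRNA gene Mir511, which lies inside Mrc1 and shares its reads, had 12 to 20 reads per library at E14, 0 to 4 at E9.5, 1 to 17 at E8.5 and 7 to 14 at E8.

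Lyve1 encodes a hyaluronan receptor of lymphatic endothelium, of yolk sac and liver endothelium and of a subset of tissue macrophages (chromosome 7, 110850607 to 110863239, minus strand). It had 1.39, 1.27 and 1.18 CPM at E8, 2.36, 0.989 and 10.4 at E8.5, 1.80, 3.38 and 3.17 at E9.5, and 9.32, 7.62 and 8.60 at E14. E8.5 replicate 3 was above all E14 libraries, with 1155 reads beside 278 and 107 in the other E8.5 libraries. E14 exceeded E8 by 2.73 ± 0.68 (adjusted p = 0.00486, edgeR). Against E9.5 all E14 libraries were higher, but the difference of 1.61 ± 0.65 missed the threshold (adjusted p = 0.0594, edgeR), and it passed without E8.5 replicate 3 (1.58 ± 0.30, adjusted p = 0.00105) or replicate 2 (1.60 ± 0.45, adjusted p = 0.0130). Those libraries enter the comparison through the shared estimate of the spread. For E8.5 against E8 the value was 1.84 ± 0.66 with E8.5 replicate 3 and 0.36 ± 0.34 without it. Stab2, a hyaluronan receptor of sinusoidal endothelium, was chosen after its values were seen, and it shares reads with an overlapping gene. It was also highest in E8.5 replicate 3, at 11.5 CPM beside 2.91 and 1.80 in replicates 1 and 2. The 11 blood endothelium and endocardium genes, Stab2 among them, went the other way as a sum. They held 564 CPM in replicate 3, beside 711 and 615 in replicates 1 and 2. The source of the Lyve1 reads in that library was not tested.

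Cd68 encodes a heavily glycosylated protein of late endosomes and lysosomes (chromosome 11, 69664213 to 69666153, minus strand). It had 1.08, 1.12 and 1.20 CPM at E8, 0.867, 0.962 and 1.27 at E8.5, 0.958, 1.02 and 0.913 at E9.5, and 1.46, 1.59 and 1.47 at E14. The E14 libraries lay above all others, and the rise against E9.5 was 0.65 ± 0.17 (adjusted p = 0.00636, edgeR), the smallest among the 8 that passed. Against E8 it was 0.41 ± 0.16 (adjusted p = 0.0451, edgeR), a call that ended under 15 of 21 alternatives. The gene of the translation factor Eif4a1 is the upstream neighbour and does not overlap Cd68. The Cd68 count was 0.215% to 0.230% of the Eif4a1 count in the E8 libraries and 0.214% to 0.261% in those of E8.5, then 0.139% to 0.163% in those of E9.5 and 0.326% to 0.351% in those of E14. Eif4a1 itself rose by 0.62 ± 0.11 between E8.5 and E9.5 and fell by 0.53 ± 0.11 between E9.5 and E14 (adjusted p = 0.00138, edgeR), so the ratio moves with both genes.

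Cx3cr1 encodes the receptor for the chemokine fractalkine, a marker of yolk sac macrophages and microglia, but its deposited count cannot be read as its RNA. The interval, chromosome 9, 119901616 to 120068283 on the minus strand, spans 167 kb. It follows 1 long annotated transcript, while the other annotated transcripts of GENCODE M21 begin and end within 19.6 and 21.2 kb. Inside it lie Xirp1, Gorasp1, Csrnp1 and Ttc21a, and 24964 bp of Wdr48 overlap it. Xirp1, which encodes the actin-binding protein Xin of heart and skeletal muscle, alone equalled 61.4% to 72.0% of the Cx3cr1 count. The 4 enclosed genes together equalled 76.9% to 83.4% of it in the 12 libraries, and with Wdr48 the sum was 101% to 104%.

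The Cx3cr1 interval had 181, 196 and 190 CPM at E8, 224, 191 and 176 at E8.5, 181, 182 and 177 at E9.5, and 210, 198 and 207 at E14. Its changes were 0.06 ± 0.09, -0.13 ± 0.09 and 0.19 ± 0.09 over the 3 intervals, and Xirp1 itself moved by 0.13 ± 0.11, -0.26 ± 0.11 and 0.28 ± 0.11. None of these passed (adjusted p = 0.0605 to 0.696, edgeR). Without Cx3cr1 the count was 8 of 9 genes higher at E14 than at E9.5 and 9 of 9 higher at E14 than at E8.

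**Figure D3:**
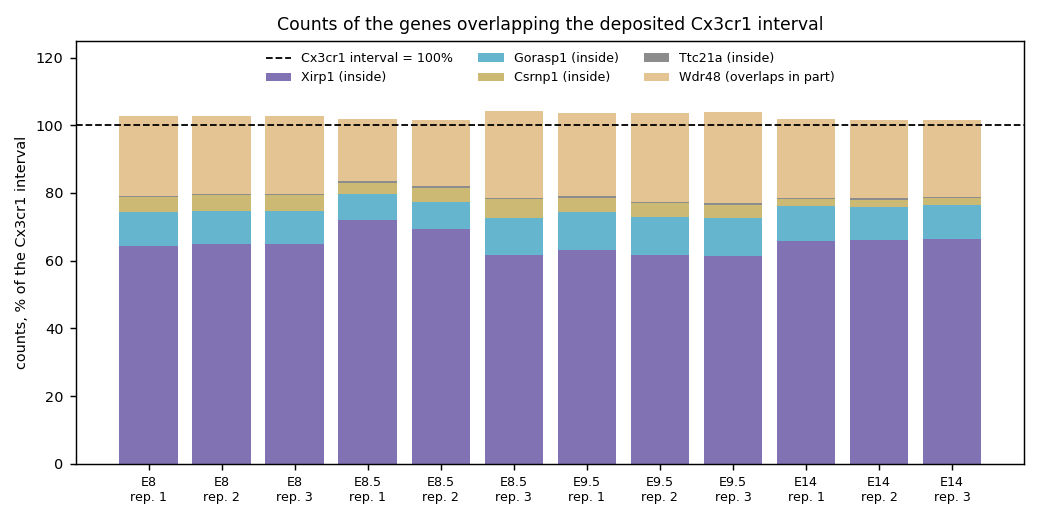
Counts of the genes that overlap the deposited Cx3cr1 interval, as a percentage of the Cx3cr1 count in each of the 12 libraries. Xirp1 makes up 61.4% to 72.0%, and the stack of all 5 genes ends at 101% to 104%, just above the dashed line at 100%.

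In the first 2 intervals the 10 genes gave few calls. Between E8 and E8.5, 0 of 10 passed in edgeR, where 1.18% of all genes tested did, 0.891% upward and 0.291% downward. Csf1r and F13a1 were higher in all E8.5 libraries than in all E8 libraries, and 26.6% of all genes tested did not overlap, 13% upward. F13a1 and Lyve1 had an unadjusted p under 0.05 (2 of 10), and DESeq2 called 1, Lyve1 (1.83 ± 0.70, adjusted p = 0.0497), among 4351 genes it called in all, against 341 in edgeR. Without E8.5 replicate 3 edgeR called 1 of the 10, Ptprc, among 8865 genes in all. For E9.5 against E8.5 the fall of Mrc1 was the 1 call, where 37% of all genes tested passed, and it was also the 1 gene without overlap, where 43.5% of all genes had none. Between E8 and E14, 9 rose and 0 fell, beside 60.7% of all genes that passed, 31.5% upward and 29.2% downward. In all 10 the E14 libraries lay above the E8 libraries, as in 36.9% of all genes, where 72.3% did not overlap in either direction. The E14 comparisons share their E14 libraries.

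Of the genes of the 3 ligands of these receptors, Csf1 and Cx3cl1 were higher at E14 than at E8 (1.32 ± 0.24 and 1.44 ± 0.16) and Il34 did not pass. Csf1, which encodes colony-stimulating factor 1, averaged 3.13 ± 0.298 CPM in the E8 libraries and 3.88 ± 0.954 in those of E8.5, then 6.98 ± 2.68 in those of E9.5 and 7.82 ± 0.412 in those of E14 (SD, n = 3 each). It rose between E8.5 and E9.5 (0.85 ± 0.24, adjusted p = 0.0167, edgeR), although the libraries of these stages overlapped. Between E9.5 and E14 it did not pass (0.16 ± 0.24, adjusted p = 0.603, edgeR). Whether its course differed from that of Csf1r was not tested. Il34, the gene of the other ligand, stood at 0.801 ± 0.0298, 0.715 ± 0.0657, 0.597 ± 0.110 and 0.590 ± 0.0808 CPM from E8 to E14 and passed in no interval. Cx3cl1, which encodes fractalkine, rose between E8.5 and E9.5 (0.49 ± 0.15) and again between E9.5 and E14 (0.53 ± 0.15, adjusted p = 0.0122, edgeR), and reached 2.85 ± 0.0873 CPM at E14 against 1.05 ± 0.123 at E8.

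Of the myeloid transcription factors, 4 of 10 rose between E9.5 and E14 and 3 fell, beside 25.4% and 24.6% of all genes tested. Spi1, named for the motif shown above, had 0.969 ± 0.00780 CPM at E14 and 0.421 ± 0.0817 at E9.5 and rose by 1.20 ± 0.18. Maf, of tissue macrophages and other cells, rose by 2.69 ± 0.52. Irf8, a factor of monocytes and macrophages, rose by 3.11 ± 0.18, but its interval overlaps a long transcript, Gm20388, with far more counts. Ikzf1, the factor Ikaros of lymphoid and erythroid cells, fell by 2.49 ± 0.29, to 3.03 CPM at E14 against 17.0 at E9.5. Runx1, required for the first blood stem cells, fell by 0.79 ± 0.22, and Nr1h3, the liver X receptor alpha, by 0.82 ± 0.14, both named after their values were seen. The adjusted p of the 6 named here was at most 0.0100 (edgeR).

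Of the other macrophage surface genes, 10 of 19 intervals (18 genes, with Itgam listed on 2) rose between E9.5 and E14 and 1 fell. The median log2 fold change was 1.40. Over all genes tested 25.4% rose, 24.6% fell and the median was 0.01. The lipid receptor gene Trem2 rose by 4.64 ± 0.50, the scavenger receptor gene Msr1 by 3.68 ± 0.40 and Aif1, which encodes the actin-bundling protein IBA1, by 3.62 ± 0.66. Adgre1, which encodes the F4/80 antigen of mouse macrophages, had 5.70 ± 0.203 CPM at E14 and 0.838 ± 0.388 at E9.5 and rose by 2.77 ± 0.30. Fcgr3, an immunoglobulin receptor gene, was the member that fell (0.74 ± 0.15 lower, a gene named after its values were seen). The highest adjusted p of these 5 genes was 0.00148 (edgeR).

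Among the pan-leukocyte genes 15 of 22 rose between E9.5 and E14 and 3 fell, with a median of 1.05. Over all genes tested the shares were 25.4% and 24.6%. Tyrobp, the adaptor DAP12 that signals for TREM2, rose by 3.53 ± 0.26, and Cybb, the catalytic subunit of the phagocyte NADPH oxidase, by 2.19 ± 0.23. Of the 15, 5 lie in intervals that overlap a gene with at least 0.5 times their counts, Lcp2 (1.96 ± 0.26) and Ncf1 (1.86 ± 0.24) among them. Mean levels were lower at E14 than at E9.5 for Ncf4 (0.817 against 1.98 CPM), Cyba (16.5 against 23.8) and Arhgdib (10.1 against 16.9). Cyba and Arhgdib, named after their values were seen, lie in intervals that overlap Gm20388 and Pde6h. Of 15 phagocyte lysosome genes 7 rose and 0 fell, 4 of the 7 with such an overlap. Lyz2, the lysozyme of macrophages and neutrophils, rose by 1.18 ± 0.29, and Lamp2, a lysosomal membrane protein made by most cells, by 0.92 ± 0.06.

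Of 11 classical complement genes, listed as partners of C1q, 5 rose between E9.5 and E14 and 1 fell, with a median of -0.07. Of all genes tested 25.4% rose and 24.6% fell in that interval. Serping1, the C1 inhibitor, which blocks the proteases bound to C1q, rose by 1.59 ± 0.15, and C3ar1, a receptor for a fragment of C3, by 1.71 ± 0.27. C2, a protease of the pathway, fell by 0.57 ± 0.11, and its interval overlaps Zbtb12 with 0.878 times its counts.

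**Figure D4:**
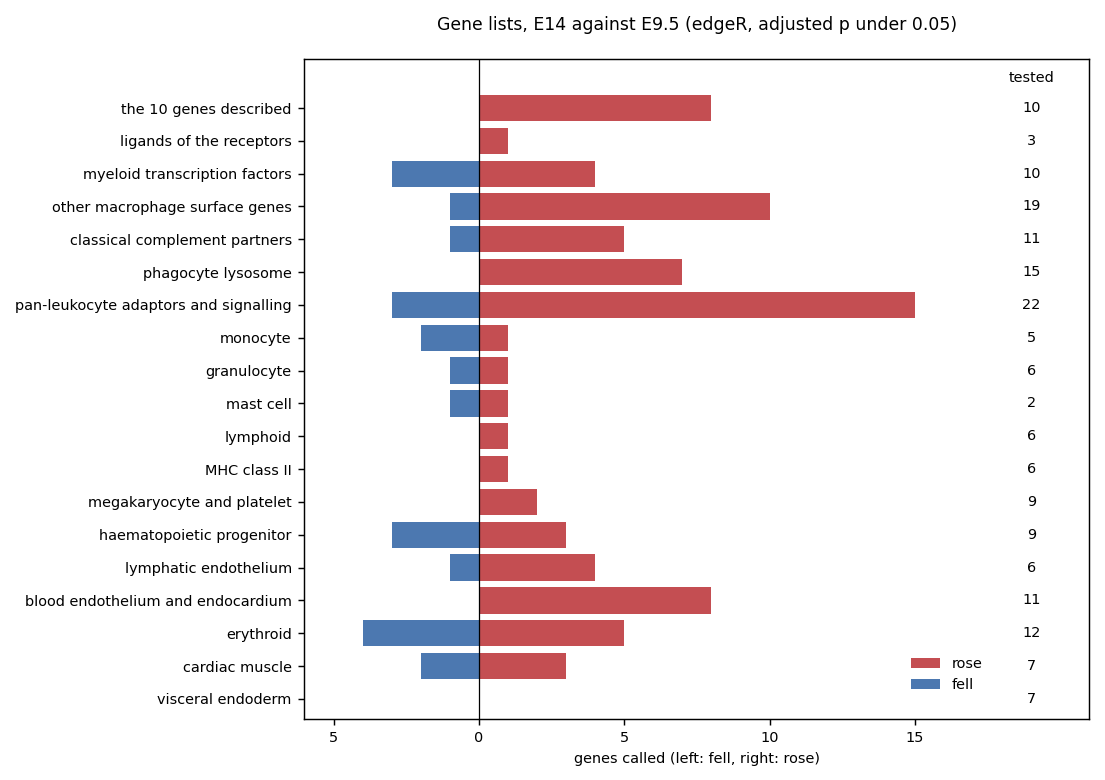
Number of genes in each list that rose (right) or fell (left) in E14 against E9.5 at an adjusted p under 0.05 in edgeR, with the number tested at the right margin. The pan-leukocyte list has 15 of 22 rising and the macrophage surface list 10 of 19, while the lymphoid and MHC class II lists have 1 of 6 each. Of all genes tested 25.4% rose and 24.6% fell.

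Markers of other cells that share some of these genes moved as well, and their part in the results was not tested. Of 6 lymphatic endothelium genes 4 rose and 1 fell between E9.5 and E14, beside 50% of all genes tested that passed. Ccl21a, a chemokine gene whose interval overlaps 4930578G10Rik, rose by 5.70 ± 0.75, Mmrn1 by 1.25 ± 0.19 and Prox1, which heart muscle also makes, by 0.85 ± 0.14. Reln, the gene of the secreted protein reelin, fell by 1.87 ± 0.22, to 16.4 CPM at E14 against 59.8 at E9.5. The summed level of the 6 was 124 to 127 CPM at E14 and 109 to 135 at E9.5. Of 11 blood endothelium and endocardium genes 8 rose and 0 fell, with the summed level at 928 to 971 CPM at E14 against 549 to 614 at E9.5. Of 9 megakaryocyte and platelet genes 2 rose, Gp9 (1.98 ± 0.48) and Gp1bb (1.16 ± 0.25, with an overlap), and the summed level was 15.3 to 23.4 CPM at E14 and 11.04 to 17.6 at E9.5. No gene of these 3 lists was at 0 at E9.5 or E14.

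Lists of other leukocytes held 2 to 6 tested genes each, and between E9.5 and E14, when 50% of all genes tested passed, 1 to 3 genes of each list did. Of 5 tested monocyte genes 1 rose, Ccr2, the chemokine receptor of inflammatory monocytes (3.63 ± 0.62, to 1.38 CPM), and 2 fell, Plac8 and F10. Of 6 tested granulocyte genes 1 rose, the antimicrobial peptide gene Camp (1.69 ± 0.57, to 0.107 CPM), and 1 fell, the peroxidase gene Mpo (1.89 ± 0.38 lower). Camp had only 7 to 9 reads per library at E14 and 2 to 3 at E9.5, and its mean at E8.5 was 0.123 CPM, above that of E14. Of 6 tested lymphoid genes 1 rose, Klrb1c, which encodes the natural killer cell receptor NK1.1 (1.49 ± 0.51, to 0.144 CPM), whose interval overlaps Gm44511. Camp and Klrb1c were named after their values were seen. Of 6 tested genes of MHC class II, which presents antigen, 1 rose, Ciita, whose interval overlaps Dexi. Of the 2 mast cell genes tested the carboxypeptidase Cpa3 rose (3.60 ± 0.43) and Hdc, the histamine-forming enzyme, fell (-0.44 ± 0.14). The T cell gene Cd3d, the killer cell gene Nkg7 and the mast cell gene Fcer1a had no reads at E14, and the neutrophil gene Elane had none at E9.5. The summed levels at E14 were 2.06 to 3.06 CPM for the monocyte, 0.724 to 1.13 for the granulocyte, 2.03 to 2.59 for the lymphoid and 4.40 to 5.50 for the MHC class II genes, against 10.6 to 16.1, 1.18 to 1.38, 1.75 to 1.90 and 2.49 to 4.65 CPM at E9.5.

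The protein-coding genes most like the mean course of the 10, by Pearson's r over the 12 libraries, were Col6a6, a collagen VI chain (r = 0.996), the cytokine receptor subunit gene Il6st (0.989), Prrg3 (0.988) and Vsir, which encodes the immune checkpoint VISTA (0.988). The other 8 of the 12 nearest were Calcoco1, Adamts7, Fbxo10, Col14a1, Rasl12, Gipr, Herc3 and Pik3r1, with r from 0.983 to 0.988. These values describe a contrast of the E14 libraries with the rest, since the libraries share their stages. With Cx3cr1 left out of the mean, a choice made after seeing the data, 4 of the 12 stayed among the nearest.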

How the data were processed

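Total RNA of 12 libraries was sequenced, 3 at each stage. Per the submitters' processing notes STAR 2.5.0 and Cufflinks 2.2.1 were used, with GRCm38, mm10 and hg38 named and no roles given. The authors deposited raw read counts, 1 whole number per interval and library. How reads were counted, on which strand and with which annotation is not stated in the labels. Intervals were matched to GENCODE M21 (42778 identical, 5645 by symbol, 286 unmatched).

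Tests used edgeR 4.0.16 (R 4.3.3), after filterByExpr at a minimum count of 10, with TMM factors (0.913 to 1.07), and with 1 robust quasi-likelihood fit to all 12 libraries with a mean per stage, Benjamini-Hochberg adjusted over 28846 genes. The test was also run on simulated data. DESeq2 1.42.0, 2 other scalings, 2 other filters, a replicate block, fits of 2 stages, an adjustment for interval length, removal of globins and small structural RNAs, and each library left out in turn were alternatives. Python 3.11.15, pandas 2.3.3 and matplotlib 3.10.9 made tables and figures.

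Replicates differed beyond counting noise (chi-square of 8.41 to 201 per gene), so each counted as 1 sample. The labels tie no library to its own embryos or litter. The p-values therefore reflect the spread between these samples alone, and that may be technical. An overlap is named where the other gene has at least 0.5 times the counts. Companion genes were named by size of change, up to 4 per list and comparison, at 0.5 CPM or more; 2 genes so named are not reported here. The 10 genes, the lists and the rules were chosen with earlier results of these data known.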

Additional observations from a re-analysis of the deposited data

How the results depend on the processing

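The number of the 10 genes called was 8 between E9.5 and E14 and stayed at 8 to 10 over 21 alternatives, and for E14 against E8 it was 9 and stayed at 8 or 9. For E9.5 against E8.5 it was 1 under all 21. For E8.5 against E8 it was 0, except 1 with DESeq2 and 0 to 1 with a library left out. The replicate numbers did not pair the samples: deviations of same-numbered libraries correlated at -0.08 to 0.13, over 0.1 in 1 of 18 pairs. With a replicate block 0, 1, 8 and 8 of the 10 genes were called in the 4 comparisons, the change being Cd68 in E14 against E8 (adjusted p = 0.0610, edgeR). That call also ended with RLE factors (0.0611), no filter (0.135), DESeq2 (0.0709), globins and small structural RNAs left out (0.0526) and 10 of 12 libraries left out in turn (0.0518 to 0.167). Lyve1 in E14 against E9.5 passed in 6 alternatives (adjusted p over all 21 from 0.000652 to 0.170).

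Values that changed sign had not passed. With the adjustment for interval length, Cx3cr1 stood at -0.27, 0.22 and -0.17 over the 3 intervals and -0.22 for E14 against E8, and Mrc1 at -0.070 for E8.5 against E8. With each library left out in turn, E8.5 against E8 ran from -0.90 to 0.061 for C1qa, -0.044 to 0.098 for Cx3cr1 and -0.30 to 0.33 for Mrc1. E9.5 against E8.5 ran from -0.96 to 0.07 for C1qb, -0.33 to 1.29 for Ptprc, -1.20 to 0.76 for Lyve1, -0.22 to 0.25 for F13a1 and -0.21 to 0.11 for Cd68. The cause of these changes was not tested.

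Over all genes the calls of E8.5 against E8 numbered 341, but 190 with no filter, 1564 with at least 1 CPM in 3 libraries, 3 with the replicate block, 9 in the fit of 2 stages, 4351 with DESeq2, 909 without globins and small structural RNAs, 118 with the length adjustment and 0 to 8865 with a library left out. Those of E9.5 against E8.5 numbered 10659, but 6099 in the fit of 2 stages and 7044 without E9.5 replicate 3. Depth limits the C1q genes and Ptprc before E14, where libraries held 3 to 63 reads of each.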

Other observations

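Between E8.5 and E9.5, when none of the 10 genes rose, some genes of the other lists did, those of leukocytes and phagocytes among them. Of 9 megakaryocyte and platelet genes 6 rose in that interval and 1 fell, beside 18.4% and 18.5% of all genes tested. Pf4, a platelet chemokine, averaged 2.71 ± 1.74 CPM at E9.5 (SD), with libraries from 0.787 to 4.19, against 0.0382 ± 0.0173 at E8.5. The difference was 6.09 ± 0.65 on the log2 scale (adjusted p = 0.000111, edgeR). Treml1, a platelet receptor gene, rose by 4.00 ± 0.82 and Gp9 by 3.04 ± 0.59. In the same interval 10 of 12 erythroid genes rose and 0 fell, and 8 of 22 pan-leukocyte genes rose and 3 fell. The pan-leukocyte rises were led by Ncf4, an oxidase subunit (2.48 ± 0.41), and Plek (1.80 ± 0.22), a platelet and leukocyte protein whose interval overlaps Cnrip1. The lysozyme genes Lyz1 (2.47 ± 0.39) and Lyz2 (1.85 ± 0.30) rose as well. Ncf4 averaged 1.98 ± 0.824 CPM at E9.5 and 0.817 ± 0.296 at E14. Whether these genes and the 10 differ in their timing was not tested.

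Of 9 haematopoietic progenitor genes 3 rose and 3 fell between E9.5 and E14, beside 25.4% and 24.6% of all genes tested. The summed level of the 9 was 143 to 144 CPM at E14 against 101 to 115 at E9.5. Cd34, a surface marker of progenitors and endothelium whose interval overlaps Gm16897, rose by 1.06 ± 0.13, to 84.4 CPM at E14 against 40.5 at E9.5, and Myb, a factor of definitive blood progenitors, rose by 0.94 ± 0.28. Gfi1b, a repressor of erythroid and megakaryocyte progenitors, fell by 4.68 ± 0.34, to 0.171 CPM at E14 against 4.48 at E9.5, and Tal1, a factor of early blood and endothelium, fell by 1.33 ± 0.14. Plac8, listed here for monocytes, fell by 4.47 ± 0.20, to 0.444 CPM at E14 against 9.98 at E9.5 and 12.1 at E8, opposite to Ccr2 of the same list.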
